A study of Mus musculus with 9 samples.

Results

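The 6 horizontal basal cell genes Krt5, Krt14, Krt15, Krt17, Trp63 and Icam1 were taken by gene symbol from an expected-count table of 55291 genes, measured by RNA-seq of the main olfactory epithelium. All 6 were in the table, and all 6 passed the filter of 10 counts over the mice together that left 23225 genes for testing. The 9 mice were C57BL/6, 8 to 12 weeks old, and comprised 3 wild types, 3 Ms4a cluster knockouts (Ms4a cluster-/-) and 3 Ms4a6c knockouts (Ms4a6c-/-), and the labels name no treatment. The cluster deletion was made with CRISPR/Cas9 and the Ms4a6c deletion by homologous recombination, and the wild types are described as littermates without saying of which line. The design compares each deletion with the wild type, and here the comparison is made for genes of the reserve stem cell layer.

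Horizontal basal cells are flat, normally quiescent stem cells that lie on the basal lamina of the olfactory epithelium and are held to it by hemidesmosomes. They express the type II keratin Krt5 and its type I partners Krt14, Krt15 and Krt17, the transcription factor Trp63, which keeps them quiescent, and the adhesion molecule Icam1. After severe injury Trp63 is lost and the cells leave quiescence to rebuild both neurons and supporting cells. None of the 6 genes is exclusive to this layer, since basal cells of respiratory epithelium, gland ducts and squamous epithelium share the keratins and Trp63, and leukocytes and endothelium can express Icam1.

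On the mouse build GRCm38, all 6 are annotated as protein-coding. Krt14 (chr11:100203162-100207548), Krt15 (chr11:100131758-100135928) and Krt17 (chr11:100256217-100261029) all lie on the minus strand of the type I keratin locus, within 129 kb. Krt5 (chr15:101707070-101712898, minus strand) lies in the type II locus on chromosome 15. Trp63 (chr16:25683763-25892102) and Icam1 (chr9:21015985-21028817) are both on the plus strand.

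The sequence before the start site is shown for Krt5 and Icam1, the members with a promoter entry near the annotated start, at 7 and 45 bases from it. These are 250 bases upstream of the RefSeq start on GRCm38.p6, for Krt5 at chr15:101712906-101713155 on the minus strand and for Icam1 at chr9:21015690-21015939 on the plus strand. The capitals mark a p53-family half-site in Krt5 and a match to the NF-kB-like motif GGAANNTCC in Icam1.
Krt5: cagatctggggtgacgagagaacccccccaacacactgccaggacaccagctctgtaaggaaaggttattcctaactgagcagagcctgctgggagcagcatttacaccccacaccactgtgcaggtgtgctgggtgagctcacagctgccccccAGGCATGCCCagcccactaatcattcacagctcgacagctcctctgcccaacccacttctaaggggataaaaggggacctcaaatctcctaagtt
Icam1: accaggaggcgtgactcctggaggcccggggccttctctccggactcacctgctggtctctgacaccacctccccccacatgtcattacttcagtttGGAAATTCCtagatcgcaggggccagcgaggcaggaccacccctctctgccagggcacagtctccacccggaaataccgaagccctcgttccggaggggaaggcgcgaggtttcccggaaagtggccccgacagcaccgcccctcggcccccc
Both strands were searched for the p53-family half-site, for GGAANNTCC and for the AP-1 motif TGANTCA. The Krt5 match, AGGCATGCCC, matches the motif on both strands and lies 86 to 95 bases before the start. A half-site of this kind was found in 7.12% of 32817 promoter windows of the same length. The Icam1 match, GGAAATTCC, lies 145 to 153 bases before the start, and 3.58% of the windows held the motif. Neither promoter held TGANTCA, which was found in 6.75% of windows. The matches describe letters in these windows and no binding was measured.

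The libraries held 13954591 to 21987174 expected counts per mouse, the number of reads that the authors' software assigned to each gene. Levels are given as CPM, counts relative to a library size that the TMM method of edgeR had scaled, and per kb of annotated exon where genes are compared with each other. Ms4a6c had 53.95, 90.34 and 81.53 counts in the wild types, 0 in each Ms4a cluster knockout and 0, 2.35 and 2 in the Ms4a6c knockouts, and Ms4a1 had 0 in each cluster knockout against 8 to 26 in the other mice, as the labels say. A pair of libraries stood apart: wild type replicate 1 and Ms4a cluster knockout replicate 2 held 278496 and 272851 CPM of 10 nasal gland genes, against 5276 to 38893 CPM in the other mice. The secreted gland gene Bpifb9b alone took 10.4% and 10.2% of their counts.

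Krt5 was the most abundant member in every genotype when levels were compared per kb, and the levels of the 6 genes spread widely among those of all tested genes. Averaged over the 9 mice, the level per kb was 25.8 CPM for Krt5, 13.8 for Krt14, 7.83 for Krt17, 2.44 for Krt15, 2.07 for Trp63 and 1.03 for Icam1. Krt5 stood at percentile 92.8 of the 23203 tested genes with a length, Krt14 at 85.8, Krt17 at 76.1, Krt15 at 52.4, Trp63 at 49.6 and Icam1 at 39.3. Krt5, Krt14 and Krt17 were thus in the upper part of the distribution, Krt15 and Trp63 near its middle and Icam1 below it. The order of Krt15 and Trp63 was not settled: with the longest protein-coding transcript as the length, Trp63 was at 3.23 CPM per kb and Krt15 at 2.53. Trp63 has 8 transcripts in the deposited annotation and 8391 bases of exon against 5366 in that transcript, and for Icam1 the same change of length gave 1.77 CPM per kb. In bulk tissue, fewer basal cells and less RNA per basal cell cannot be told apart.

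Krt5 forms the heteropolymeric filaments of basal cells with an acidic type I partner. Its level was 54.8, 55.5 and 56.3 CPM in the wild types, 59.5, 46.5 and 56.5 CPM in the Ms4a cluster knockouts, and 55.4, 63.6 and 61.4 CPM in the Ms4a6c knockouts. The wild types lay within a narrow band, replicate 2 of the cluster knockouts was the lowest of all 9 mice, and the groups overlapped. Group means were 55.6 ± 0.757, 54.2 ± 6.77 and 60.1 ± 4.22 CPM (SD, n = 3 each). The log2 fold change was -0.03 (SE 0.09) in cluster knockouts and 0.11 (SE 0.09) in Ms4a6c knockouts, both against wild type. The 95% intervals, -0.23 to 0.17 and -0.08 to 0.31, correspond to 0.852-fold to 1.12-fold and 0.943-fold to 1.24-fold of the wild type.

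Krt14, the main type I partner of Krt5, was at 24.9, 23.4 and 21.4 CPM in the wild types. The Ms4a cluster knockouts held 28.2, 23.4 and 22.9 CPM, and the Ms4a6c knockouts 22.5, 27.7 and 24.3 CPM. The 3 groups overlapped widely, with means of 23.2 ± 1.75, 24.8 ± 2.91 and 24.8 ± 2.62 CPM (SD, n = 3 each). The log2 fold change against wild type was 0.10 in each knockout (SE 0.11 in each), with intervals of -0.14 to 0.34 in both. Krt14 and Krt17 transcripts are alike, with 89.4% identity over an alignment of 961 bases. The expected counts of both genes were whole numbers in every mouse, so they show no reads divided in fractions between them.

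Krt17, a type I keratin known for its induction in stressed and wounded epithelium, was at 11.5, 12.2 and 11.9 CPM in the wild types. It was at 13.4, 10.2 and 11.8 CPM in the cluster knockouts and at 11.1, 13.0 and 14.1 CPM in the Ms4a6c knockouts. As with Krt5, replicate 2 of the cluster knockouts was the lowest of the 9 mice and the groups overlapped. The log2 fold change was -0.0051 (SE 0.13) in cluster knockouts and 0.10 (SE 0.13) in Ms4a6c knockouts, with intervals of -0.29 to 0.28 and -0.18 to 0.37.

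Krt15, a type I keratin of slow-cycling basal cells in stratified epithelia, was the member that varied most between mice of the same genotype. The wild types held 5.54, 9.04 and 1.88 CPM, from 78, 163 and 33 counts. The cluster knockouts held 2.76, 5.18 and 3.21 CPM and the Ms4a6c knockouts 3.28, 3.23 and 4.65 CPM. Wild type replicates 2 and 3 were the highest and the lowest of all 9 mice, a 4.82-fold range within which both knockouts lay entirely. The log2 fold change was -0.59 (SE 0.47) in cluster knockouts and -0.57 (SE 0.46) in Ms4a6c knockouts, and neither was larger than the spread between mice. Without wild type replicate 2 these became -0.01 and 0.01, and without wild type replicate 3 they became -1.01 and -0.98, so each rested on which wild types were counted. The intervals ran from -1.63 to 0.45 and from -1.59 to 0.46, wide enough to hold a 0.323-fold level or a 1.37-fold level.

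Trp63 encodes p63, the regulator of basal identity. Its level was 17.1, 18.3 and 15.9 CPM in the wild types, 17.8, 12.1 and 16.7 CPM in the Ms4a cluster knockouts, and 17.9, 20.0 and 20.1 CPM in the Ms4a6c knockouts. Both knockouts overlapped the wild types, but every Ms4a6c knockout lay above every cluster knockout, if only by the gap from 17.8 to 17.9 CPM. Group means were 17.1 ± 1.19 CPM in the wild types, 15.5 ± 3.05 in the cluster knockouts and 19.4 ± 1.26 in the Ms4a6c knockouts (SD, n = 3 each). Against wild type the log2 fold change was -0.13 (SE 0.13) in cluster knockouts and 0.18 (SE 0.13) in Ms4a6c knockouts.

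Icam1, the ligand of leukocyte integrins and a surface marker used to isolate horizontal basal cells, was at 4.76, 4.49 and 4.15 CPM in the wild types. The cluster knockouts held 5.01, 5.58 and 4.21 CPM and the Ms4a6c knockouts 4.35, 3.85 and 4.01 CPM, from 56 to 106 counts per mouse over all 9. Replicate 2 of the cluster knockouts was here the highest of the 9 mice, and each pair of groups overlapped. The log2 fold change against wild type was 0.14 (SE 0.16) in cluster knockouts and -0.13 (SE 0.16) in Ms4a6c knockouts, with intervals of -0.22 to 0.49 and -0.49 to 0.22. Its antisense neighbor Gm47079 had at most 3.39 counts in a mouse.

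**Figure D1:**
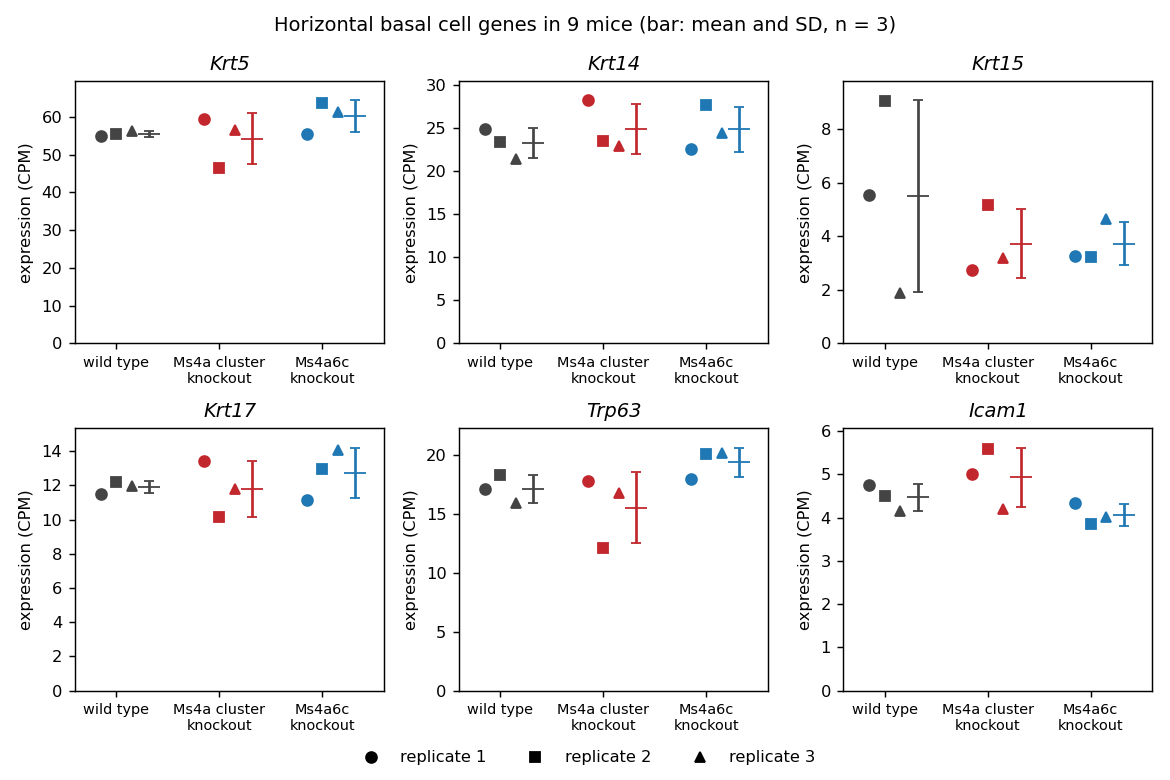
Expression in CPM (linear axis from 0) of each of the 6 genes by genotype, with 1 point per mouse, the replicate number as the point's shape, and a bar for the mean and SD (n = 3). The genotypes overlap for Krt5, Krt14, Krt15, Krt17 and Icam1, and for Trp63 the Ms4a6c knockouts start at 17.9 CPM, just above the highest cluster knockout at 17.8.

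No member passed the test between genotypes after adjustment over all genes. By edgeR's quasi-likelihood test, adjusted over all tested genes by the Benjamini-Hochberg method, 0 of 6 had an adjusted p under 0.05 in Ms4a cluster knockouts against wild type, where 0.0258% of all tested genes did. The count was also 0 of 6 in Ms4a6c knockouts against wild type and 0 of 6 between the knockouts, where 0.435% and 0.443% of all genes passed. DESeq2 likewise called 0 of 6 in each comparison, against 0.0826%, 1.95% and 1.30% of the genes to which it gave an adjusted p. The lowest edgeR adjusted p among the 6 was 0.971, 0.680 and 0.517 in the same order.

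Without adjustment, 0, 0 and 1 of the 6 genes had p under 0.05, against 4.93%, 10.5% and 9.38% of all tested genes. The values of the groups failed to overlap for 0, 0 and 1 of them, against 9.86%, 18.3% and 16.0% of all tested genes. Both counts were close to the background of all genes. The median log2 fold change of the 6 was -0.02, 0.10 and -0.06, against 0.0072, -0.0016 and 0.0070 for all tested genes. The comparisons share mice, so their values are not independent of each other.

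The 1 gene was Trp63 between the knockouts. It was lower in Ms4a cluster than in Ms4a6c knockouts by a log2 fold change of -0.30 (SE 0.13, interval -0.60 to -0.01), with an unadjusted p of 0.0451 and an adjusted p of 0.517 by edgeR, which did not pass. The other 5 genes gave -0.14 for Krt5, 0.0028 for Krt14, -0.03 for Krt15, -0.10 for Krt17 and 0.27 for Icam1 in this comparison. Replicate 2 of the cluster knockouts weighed on it: without that mouse the Trp63 difference was -0.16 and the Icam1 difference 0.18. Its gland genes stood at 272851 CPM. Wild type replicate 1, at 278496 CPM of gland genes, had 17.1 CPM of Trp63. The part of gland tissue in the Trp63 value was not tested.

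**Figure D2:**
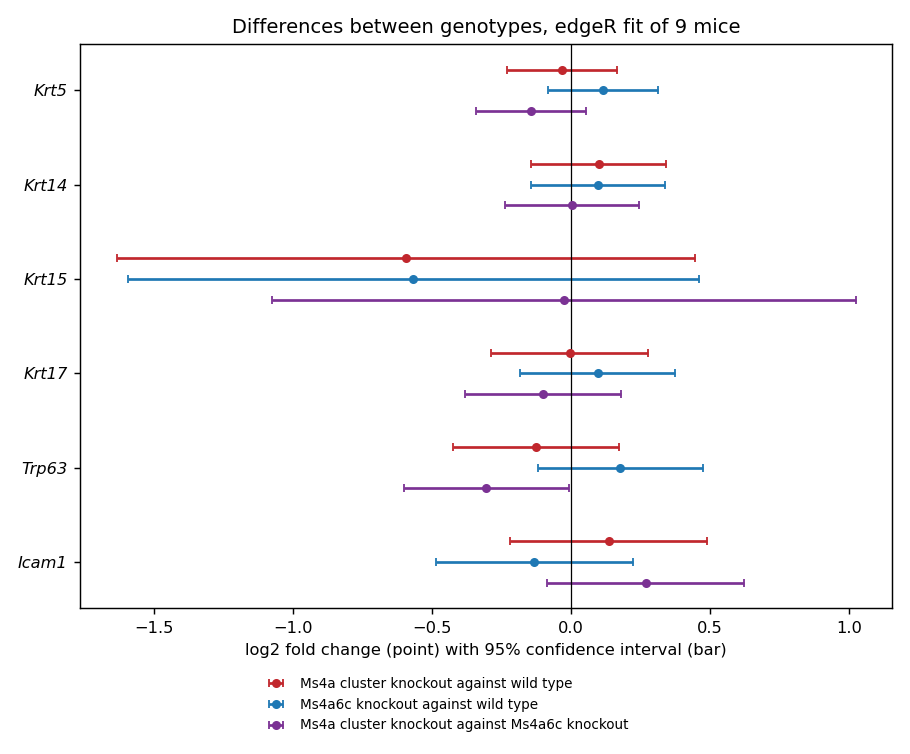
Log2 fold changes (x axis) of the 6 genes in the 3 comparisons, with points for the edgeR estimate over 9 mice and bars for its 95% confidence interval. The intervals include 0 except for Trp63 between the knockouts, which ends at -0.01, and those of Krt15 are the widest.

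The members did not vary alike within genotypes. The SD of log2 CPM within genotypes was 0.744 for Krt15, above that of 96% of the 500 genes nearest to it in level. For Icam1, of about the same level, it was 0.141, above only 7% of such genes. Krt5 (0.124), Krt14 (0.143), Krt17 (0.154) and Trp63 (0.192) lay above 49.6% to 76.4% of theirs. Krt15 and Icam1 thus had similar levels and counts, with Krt15 among the most variable genes of that level and Icam1 among the steadiest.

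Krt5 was present at about the summed level of its type I partners. Per kb, Krt5 over the sum of Krt14, Krt15 and Krt17 was 1.07 ± 0.14 in the wild types, 1.04 ± 0.11 in the cluster knockouts and 1.12 ± 0.0312 in the Ms4a6c knockouts (SD, n = 3 each), and over the 9 mice it stayed between 0.929 and 1.22. Krt5 over Krt14 ranged from 1.59 to 2.11 and Krt5 over Trp63 from 11.6 to 14.7. Krt5 over Icam1 spread further, from 16.5 in cluster knockout replicate 2 to 32.8 in Ms4a6c knockout replicate 2. The widest was Krt5 over Krt15, from 4.94 to 24.1, both ends being wild types.

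Across the 9 mice, Krt5, Krt17 and Trp63 rose and fell together by Pearson's r, while by Spearman's rho no pair passed. Of 15 pairs of members, 3 had an adjusted p under 0.05 in an exact two-sided permutation test of Pearson's r of log2 CPM, with Benjamini-Hochberg adjustment over the 15. These pairs are given with p-values of the exact permutation test. Krt5 with Trp63 had r = 0.92 (p = 0.00263, adjusted p = 0.0197) and Spearman's rho = 0.62 (p = 0.0857, adjusted p = 0.321). Krt5 with Krt17 had r = 0.89 (p = 0.00139, adjusted p = 0.0197) and rho = 0.87 (p = 0.00451, adjusted p = 0.0676). Krt17 with Trp63 had r = 0.81 (p = 0.00634, adjusted p = 0.0317) and rho = 0.68 (p = 0.0503, adjusted p = 0.252). The r of Icam1 was negative with Krt5 (r = -0.78, permutation p = 0.0133, adjusted p = 0.05005) and with Trp63 (r = -0.76, permutation p = 0.0199, adjusted p = 0.0597), neither of which passed. Krt5 with Icam1 stood at the threshold: it passed under DESeq2 size factors (r = -0.80, permutation adjusted p = 0.0403), without wild type replicate 3 (r = -0.81, adjusted p = 0.0449) and without cluster knockout replicate 1 (r = -0.96, adjusted p = 0.00149). By the same permutation test it did not pass with Spearman's rho (-0.72, adjusted p = 0.252) or as deviations from the genotype means (r = -0.69, adjusted p = 0.148). Nor did it pass without the 2 gland-rich libraries (r = -0.40, permutation adjusted p = 0.730). Krt14 followed Krt5 less closely (r = 0.49, exact permutation p = 0.189), and Krt15 had r between -0.31 and 0.30 with each of the others.

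Whether these pairs passed depended on single mice. Without Ms4a cluster knockout replicate 2, 0 of 15 pairs passed. Then r was 0.75 for Krt5 with Trp63, 0.82 for Krt5 with Krt17, 0.66 for Krt17 with Trp63 and -0.50 for Krt5 with Icam1. Without Ms4a6c knockout replicate 3, 0 of 15 passed too, though r was 0.91, 0.90 and 0.78 for the first 3 of these pairs. Without Ms4a6c knockout replicate 2, only Krt5 with Krt17 passed (r = 0.91, permutation adjusted p = 0.0115). Leaving out the 2 mice farthest from the median of the first gene gave r of 0.62 for Krt5 with Trp63 and 0.94 for Krt5 with Krt17. It gave 0.45 for Krt17 with Trp63 and -0.18 for Krt5 with Icam1. No pair passed, and Krt5 with Krt17 had an adjusted p of 0.0923 by the permutation test. The mice left out were not the same for Krt5 and Krt17. Leaving out the extremes of a gene narrows its range and can lower r by itself, so no conclusion is drawn from the lower values. Taken as deviations from the genotype means, r was 0.91 for Krt5 with Trp63, 0.89 for Krt5 with Krt17 and 0.84 for Krt17 with Trp63. For Krt5 with Icam1 it was -0.69. With 3 mice in each genotype, r was not computed within a single genotype, and all values share each mouse's scaling.

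**Figure D3:**
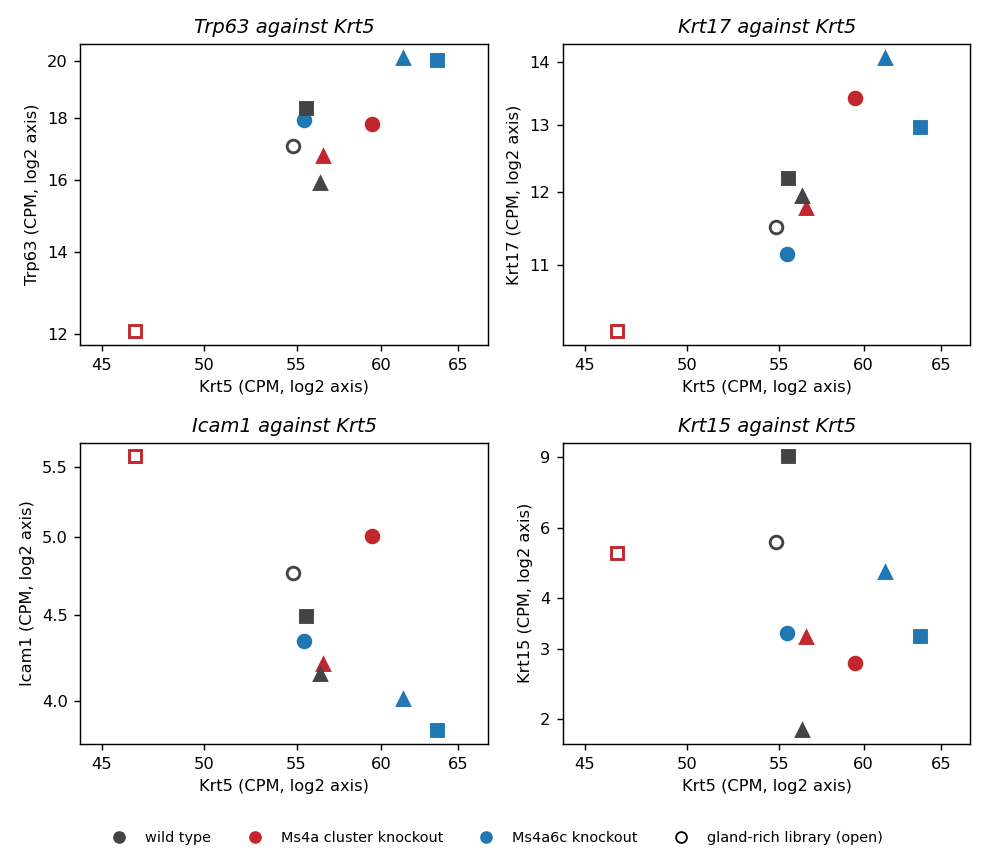
Trp63, Krt17, Icam1 and Krt15 against Krt5, in CPM on log2 axes, with 1 point per mouse, color for genotype, shape for replicate number, and open points for the pair of libraries rich in gland genes. Ms4a cluster knockout replicate 2 (open red square) is at the low end of Krt5, Krt17 and Trp63 and at the high end of Icam1, and the r of Krt15 with Krt5 is -0.31.

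The genes whose levels ran most like each member were not basal cell genes on the lists examined. Among 12817 other tested genes with a mean of at least 5 CPM, ranked by r of log2(CPM + 0.5) over the 9 mice, Krt5 was closest to the lipid flippase gene Atp8b3 (r = 0.97), Iqsec2 (0.96) and the tubulin glutamylase Ttll6 (0.96). Trp63 ranked 30 for Krt5 and Krt17 ranked 98, among 468 genes with r of at least 0.8. For Trp63 they were Cdh23 (r = 0.97), the odorant receptor chaperone Rtp1 (0.97) and Gm11611 (0.97), and for Krt17 they were Stn1 (0.98), Ranbp10 (0.96) and Ptp4a3 (0.95). Krt14 ran with 2310011J03Rik (r = 0.97), Snupn (0.96) and Gm13589 (0.92). The detoxifying enzyme gene Aldh3a1 was closest to Krt15 (r = 0.94), with 63.2 CPM in wild type replicate 2 and 40.0 in replicate 3, the same highest and lowest mice, followed by Zfp563 (0.93) and Adss (0.89). Icam1 ran with Mrpl57 (r = 0.97), Prdx5 (0.96) and Npc2 (0.94). These are ranks over 9 mice without a test.

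Genes that work with the members in basal cells likewise gave no passing gene, by edgeR's adjusted test or by DESeq2. Of 12 genes of hemidesmosomes and the basal lamina, 12 were tested, 0 passed in any comparison, and 0, 1 and 2 had an unadjusted edgeR p under 0.05, with median log2 fold changes of -0.02, -0.01 and -0.0045 in cluster knockouts against wild type, Ms4a6c knockouts against wild type and between the knockouts. The most abundant were Itgb1, the integrin subunit that anchors many epithelial cells, at 185 to 209 CPM, and the plakins Dst (150 to 203 CPM) and Plec (52.8 to 63.6 CPM), which tie keratin to the hemidesmosome. Of 12 epithelial genes linked to p63, 11 were tested, 0 passed and 0, 1 and 0 had an unadjusted p under 0.05, with medians of -0.08, 0.03 and -0.0014. The Notch ligand Jag2 was at 62.1 to 95.4 CPM. Perp, a desmosomal p63 target, was at 81.8 CPM in wild type replicate 1 and 87.7 CPM in cluster knockout replicate 2, the libraries rich in gland genes, against 40.4 to 51.9 CPM in the other mice.

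Signals that hold or release basal cell quiescence held a gene on which the tools differed. Of 12 genes of Notch and EGF receptor signaling, 0 of 12 tested passed by edgeR, with 0, 3 and 2 at an unadjusted p under 0.05 and medians of -0.0097, 0.09 and -0.12, and DESeq2 called 1, Notch2, in Ms4a6c knockouts against wild type. Notch2, a Notch receptor of epithelia, was at 104 ± 2.49 CPM in the wild types, 97.7 ± 7.83 in the cluster knockouts and 87.1 ± 3.57 in the Ms4a6c knockouts (SD, n = 3 each). Its log2 fold change of -0.26 in Ms4a6c knockouts had an unadjusted edgeR p of 0.00274 and an adjusted p of 0.177. The Notch target Hey1 and the Notch effector Rbpj were at 104 to 135 and 51.5 to 63.2 CPM. Of 7 other surface and nuclear genes of basal cells, 0 of 7 passed by edgeR or DESeq2 (0, 3 and 1 at an unadjusted edgeR p under 0.05), with the water channel Aqp3 at 278 to 361 CPM, the transcription factor Sox2 at 70.7 to 88.2 CPM and Pax6 at 43.8 to 51.2 CPM. Sox2 and Aqp3 are also made in supporting cells. Both were above wild type in Ms4a6c knockouts before adjustment only (log2 fold changes 0.19 and 0.19, edgeR adjusted p = 0.299 and 0.467).

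The summed level of genes that cytokines induce along with Icam1 was highest in the mouse with the most Icam1. The 11 tested of 12 NF-kB and cytokine-induced genes summed to 116 CPM in Ms4a cluster knockout replicate 2, against 69.4 to 89.6 CPM in the other 8 mice. Nfkbia, the inhibitor that NF-kB itself induces, gave 61.9 of the 116 CPM and was at 31.1 to 45.9 CPM in the others. That mouse is a gland-rich library, and the other such library, wild type replicate 1, was next in both the sum (89.6 CPM) and Nfkbia (45.9 CPM). Vcam1 was also highest in cluster knockout replicate 2 (13.3 CPM), but Nfkb2 was not (10.3 CPM, against 11.2 CPM in wild type replicate 1). The part of these genes or of gland tissue in the Icam1 level of that mouse was not tested. By genotype, 0 of the 11 tested passed in any comparison by edgeR or DESeq2, and 1, 0 and 0 had an unadjusted edgeR p under 0.05, with medians of 0.10, -0.17 and 0.26. The adhesion molecule Vcam1 was at 6.4 ± 0.83 CPM in the wild types and 10.8 ± 2.84 CPM in the cluster knockouts (SD, n = 3 each). Its log2 fold change was 0.74 with an unadjusted edgeR p of 0.00356 and an adjusted p of 0.968, and Nfkb2 was at 7.01 to 11.2 CPM. Of 6 genes of leukocytes and the integrins that bind Icam1, 0 passed by edgeR, with 0, 2 and 1 at an unadjusted p under 0.05, while DESeq2 called Itgal in Ms4a6c knockouts against wild type. The integrin subunit Itgal was at 11.2 ± 2.16 CPM in the wild types, 11.8 ± 0.71 in the cluster knockouts and 17.4 ± 2.29 in the Ms4a6c knockouts (SD, n = 3 each; edgeR adjusted p = 0.148 for the last against wild type), while Ptprc was at 7.4 to 10.1 CPM and Itgb2 at 7.05 to 10.4 CPM over the 9 mice.

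Markers of the other cells in the tissue were measured beside the members. Of 127 genes on 14 lists, 117 were tested, and 0, 2 and 2 passed by edgeR in the 3 comparisons, 1.71% in each of the last 2 beside 0.435% and 0.443% of all tested genes, while DESeq2 called 0, 7 and 4. At an unadjusted edgeR p under 0.05 there were 3, 23 and 15, or 2.56%, 19.7% and 12.8%, beside 4.93%, 10.5% and 9.38% of all tested genes. The lists were chosen with earlier results of these data known, so these shares cannot show an excess over the background. Both genes that passed by edgeR were on the list of squamous epithelium, which shares Krt5, Krt14 and Trp63 with basal cells. Tgm3, a transglutaminase of cornifying cells, was at 0.23 to 0.85 CPM in the wild types, 0.25 to 0.4 in the cluster knockouts and 3.12 to 5.09 in the Ms4a6c knockouts (log2 fold change 3.20 against wild type, edgeR adjusted p = 0.00953). This call against wild type was lost with the replicate block (edgeR adjusted p = 0.0537) and without wild type replicate 2 (0.0721), wild type replicate 3 (0.0539) or Ms4a6c knockout replicate 2 (0.0547). Scel, which encodes sciellin of the cornified envelope, went the other way, from 4.44 to 4.76 CPM in the wild types to 1.24 to 1.76 in the Ms4a6c knockouts (log2 fold change -1.56, edgeR adjusted p = 0.00323). The squamous list, with 9 of its 14 genes tested and counted, summed to 16.7 to 18.5 CPM in the wild types, 18.2 to 20.7 in the cluster knockouts and 20.0 to 23.2 in the Ms4a6c knockouts. Its members Krt13, Krt6a, Krtdap, Cnfn and Dsg1a were too low to test, and Krt10 (3.99 to 5.88 CPM) and Sprr1a (1.42 to 5.54 CPM) were among its highest.

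The lists of other cells in the tissue, of which only some can express the members, had no gene that passed by edgeR. Myoepithelial and smooth muscle genes, led by Acta2, Tagln and Mylk, summed to 318 to 433 CPM in the wild types, 331 to 396 in the cluster knockouts and 291 to 386 in the Ms4a6c knockouts, with 0 of 6 passing. Respiratory ciliated and secretory genes, led by Muc5b, Foxj1 and Dnah5, summed to 689 to 831 CPM over the 9 mice (0 of 6 tested passed, with Scgb1a1 too low to test), and endothelial genes, led by Pecam1, Kdr and Vwf, to 35.9 to 43.4 CPM (0 of 9). Sustentacular cell genes, which include Cyp2a5, Cyp2g1 and Cbr2, summed to 20581 to 22285 CPM in the Ms4a6c knockouts and 16152 to 18459 CPM in the other mice. The sum was led by Cyp2a5 and Cyp2g1, with means of 9171 and 4609 CPM in the wild types and 12203 and 5748 CPM in the Ms4a6c knockouts. Of the 5 genes on this list 0 passed by edgeR, with 1, 4 and 2 at an unadjusted p under 0.05, and DESeq2 called 3 in Ms4a6c knockouts against wild type. Of these, Cyp2a5 and Cyp2g1 were higher, and Ermn, named after its values were seen, was lower (edgeR log2 fold change -0.41). Between the knockouts DESeq2 called Cyp2a5 and Cyp2g1. Whether this higher sustentacular sum is related to the higher Trp63 and Krt5 means of the Ms4a6c knockouts was not tested. Olfactory sensory neuron genes, led by Omp, Gnal and Stoml3, were lowest in cluster knockout replicate 2 at 9843 CPM and reached 12571 CPM elsewhere (0 of 6 passed). That mouse was thus low in neuronal genes as well as in Krt5, Krt17 and Trp63, and high in gland genes. The sum of globose basal and dividing cell genes, which include Mki67, Top2a and Kit, was 87.4 to 128 CPM (0 of 7), and of the gland genes, led by Bpifb9b, Bpifb9a and Obp1a, 0 of 10 passed. Of the gland genes 0, 4 and 3 had an unadjusted edgeR p under 0.05, with median log2 fold changes of -0.01, -3.08 and 3.56. Both gland-rich libraries lay outside the Ms4a6c knockouts.

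Among all keratins, the members Krt5, Krt14 and Krt17 were near the top per kb, below Krt18, Krt8 and Krt23. The table held 55 keratin symbols, of which 29 were tested and 9 had 0 counts in all 9 mice, with 27 each on chromosomes 11 and 15. Per kb, Krt18 (263 CPM) and Krt8 (165 CPM), the pair of simple epithelia, led the list, followed by Krt23 (54.2 CPM), Krt5 (25.8 CPM), Krt19 (21 CPM), Krt14 (13.8 CPM), Krt17 (7.83 CPM) and Krt7 (3.72 CPM). Krt15 ranked 11. The basal pair Krt5 and Krt14 thus stood well below the simple pair in this tissue. Of the 25 other keratins tested, 0 passed in any comparison by edgeR or DESeq2, and 0, 1 and 3 had an unadjusted edgeR p under 0.05, with median log2 fold changes of 0.08, -0.0047 and 0.11.

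**Figure D4:**
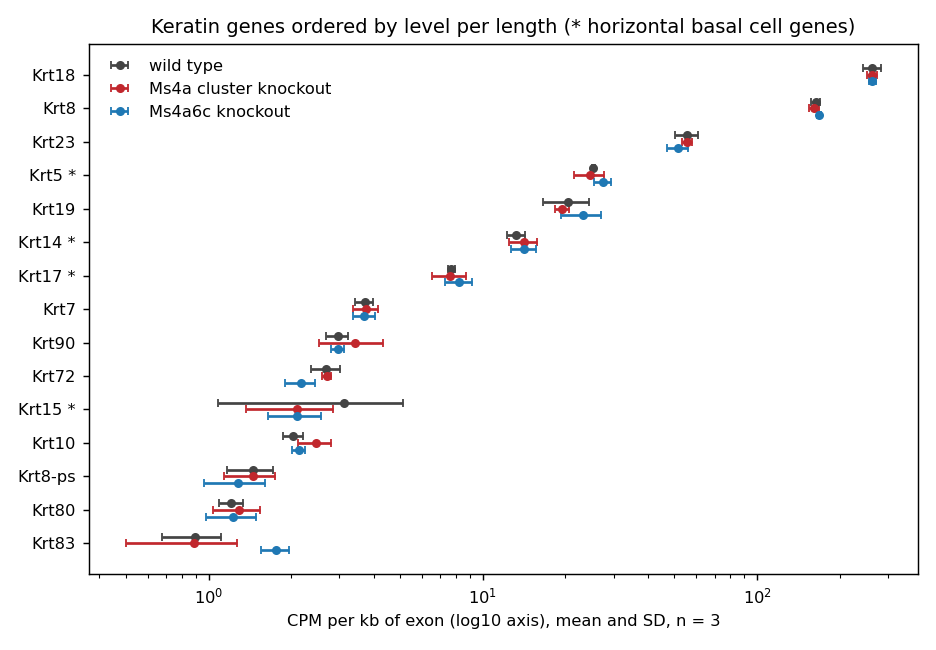
The 15 keratin genes with the highest level per length, in CPM per kb of exon on a log10 axis, as mean and SD of the 3 mice of each genotype, with the members starred. Krt5, Krt14 and Krt17 sit between 7.83 and 25.8 CPM per kb, below Krt18, Krt8 and Krt23, with the genotypes close together, and Krt15 has the widest bars.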

How the data were processed

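Libraries from the main olfactory epithelium of 9 mice were used, grouped by genotype and replicate number from the labels. Per the labels and the study's methods, the authors prepared directional libraries from poly-A RNA, aligned paired reads to mm10 with STAR 2.6.1 in DolphinNext, and deposited RSEM 1.3.1 expected counts on GENCODE M25, with no normalization or stated filter. The strand setting of the counting is not given in the sources used here. The authors compared genotypes with DESeq2.

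Values were rounded, and genes whose sum over the mice was at least 10 were scaled by TMM and tested with edgeR 4.0.16 (quasi-likelihood test, R 4.3.3) in a single model of 9 mice, with Benjamini-Hochberg adjustment over all tested genes. Standard errors are the log2 fold change over the square root of F, and intervals are at 95%. GENCODE M21 (GRCm38) gave lengths and coordinates, matched by transcript for 99.6% of genes. Promoters came from RefSeq, where Krt5, Krt14 and Icam1 of the 6 genes matched; the Krt14 entry starts 1518 bases from the annotated start and is not shown. Near-identical transcripts were sought with megablast (blast 2.17.0). Pair correlations used all 362880 pairings of 9 mice (scipy 1.17.1). The procedure was tested on simulated counts.

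The members and gene lists were chosen with earlier results of these data known. Named were the members, Ms4a6c and Ms4a1, the 3 highest genes and any passing gene of each list, the 5 highest other keratins per kb, and the 3 genes closest to each member. A gene of the p63-linked list that this rule names is not reported here. Krt15's rank and genes singled out for a mouse were chosen after their values were seen. Alternatives were DESeq2 1.42.0, its size factors, other filters, an adjusted p under 0.01, the compared genotypes alone, a replicate block, leaving out each mouse and, chosen after seeing the data, leaving out the 2 gland-rich libraries and the longest coding transcript as length. A count of 3 was taken as the limit of detection. Reads have no molecular identifiers, so limits cover counting error only. The labels do not say whether mice share a litter. The edgeR and DESeq2 p-values set differences between genotypes against the spread between these mice, and the permutation p-values compare pairings of the mice.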

Additional observations from a re-analysis of the deposited data

How the results depend on the processing

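The count of 0 members called held in all 42 alternative fits, where the lowest adjusted p was 0.424. Of 234 alternative log2 fold changes of members, 15 changed sign, none past the threshold. In cluster knockouts against wild type, Krt5, Krt17 and Trp63 became 0.052, 0.061 and 0.012 without the 2 gland-rich libraries. Leaving out 1 mouse gave -0.10 to 0.062 for Krt5, -0.0044 to 0.16 for Krt14, -0.11 to 0.083 for Krt17 and -0.23 to 0.013 for Trp63, and cluster knockout replicate 2 was the mouse without which Krt5 and Trp63 turned positive. For Krt15 in Ms4a6c knockouts against wild type the range was -0.98 to 0.013, and between the knockouts it was -0.10 to 0.090 for Krt14 and -0.31 to 0.16 for Krt15. The cause was not tested.

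Genes called in cluster knockouts against wild type, Ms4a6c knockouts against wild type and between the knockouts numbered 6, 101 and 103. They were 3, 58 and 60 at an adjusted p under 0.01, and 18, 345 and 271 by DESeq2. Without a filter the last 2 comparisons gave 182 and 155, and without the 2 gland-rich libraries the second gave 350. Leaving out 1 mouse gave 3 to 7, 59 to 143 and 66 to 97. List genes called, 0, 2 and 2, became 7 and 4 in the last 2 comparisons by DESeq2, 6 in the second without the gland-rich libraries, and 1 to 3 in the second when 1 mouse was left out.

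Same-numbered mice did not deviate together (mean r of -0.37, -0.03 and 0.00 in the 3 comparisons), and replicate numbers were taken as names. With 3 mice per genotype, and the 2 gland-rich libraries under different numbers, these r values cannot show whether the numbers mark a litter or batch. With the replicate block, 2 genes were called in cluster knockouts against wild type and 1 list gene in Ms4a6c knockouts against wild type, where Tgm3 lost its call, and no member.

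Pairs of members with an adjusted p under 0.05, 3 of 15, fell to 0 with Spearman's rho, without the 2 mice farthest from the median and without the 2 gland-rich libraries, and were 0 to 6 when 1 mouse was left out. With the longest coding transcript, the level of Trp63 became 3.23 and of Icam1 1.77 CPM per kb. Krt15 rested on 33 to 163 counts per mouse and Icam1 on 56 to 106, the fewest of the members.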
